A study of Apis mellifera with 12 samples.

Results

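The hexamerins are the storage proteins of insect blood, and the honeybee, *Apis mellifera*, is represented here by 4 hexamerin genes, *Hex70a*, *HEX70b*, *Hex70c* and *Hex110*, which code for the proteins HEX70a, HEX70b, HEX70c and HEX110. They are all the loci whose single gene name begins with Hex70 or Hex110, 4 of the 17621 loci in each file, and no row that joins several gene names holds one. Poly(A) RNA of wildtype whole embryos of the strain *Apis mellifera carnica* was sequenced in 12 libraries, a pair from each of 6 groups. The groups were females and males of 10–15 h, of 25–40 h and of 55–70 h after egg laying. Each RNA sample came from a pool of 100 embryos at 10–15 h, 60 at 25–40 h and 30 at 55–70 h, taken from 3 mothers. Females developed from fertilized eggs and are diploid, and males from unfertilized eggs and are haploid. By the study's methods the female eggs came from naturally mated queens and the male eggs from unmated queens treated with CO2, so where that holds for these pools, sex and the type of mother cannot be told apart. The labels number the replicates without saying that the pools were collected separately, so p-values measure only the spread between these samples, which may be technical.

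Hexamerins belong to the same protein family as the oxygen-carrying hemocyanins and the prophenoloxidases, but they bind no oxygen. In insects they are made mainly by the larval fat body, are released into the hemolymph, accumulate in large amounts before metamorphosis, and are then taken up again as a source of amino acids for building adult tissues. In the honeybee they are best known from larvae and pupae, and *Hex70a* is also known from adult bees and their gonads. The numbers in their names stand for the size of the protein subunit.

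The genes of the Hex70 class stood side by side. In the coordinates of the files (the sources used here name no genome build) *Hex70a* lay on chromosome 8 from 12690182 to 12694059, *HEX70b* from 12696801 to 12700595 and *Hex70c* from 12705702 to 12709746. The gaps between them were 2741 and 5106 bp. *Hex110* lay apart, on chromosome 11 from 11773708 to 11778951, and was the longest of them with a span of 5244 bp and 2 groups of transcription start sites, against spans of 3878, 3795 and 4045 bp and 1 start site group for each Hex70 gene. *HEX70b* overlapped the uncharacterized locus *LOC100578605* by 620 bp, and *Hex110* overlapped *TpnCIIa*, a troponin C gene of muscle, by 276 bp. Whether reads were counted by strand is not given, so reads from these stretches cannot be assigned to one gene. How reads that match several of the related Hex70 genes were treated is not given either.

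Values are FPKM, the fragments of a locus scaled to its transcript length and to all mapped fragments of the library, with the lower and upper confidence bounds that the authors' software gave. The files hold no read counts, so depth is unknown. All 4 loci had a valid estimate in 12 of 12 libraries and were among the 10105 loci tested, those that averaged 1 FPKM or more and were estimated without a fault throughout. The bounds reached 3.17% to 11.9% of their midpoint to either side for *HEX70b*, 4.14% to 16.0% for *Hex70c*, 10.0% to 24.5% for *Hex70a* and 3.91% to 32.5% for *Hex110*, where the widest belonged to the libraries of lowest FPKM. In 6 of 12 libraries each, the FPKM of *HEX70b* and *Hex70c* lay above their own upper bound. These were the 4 libraries of 10–15 h and both male libraries of 55–70 h, and 22.5% to 27.8% of all loci with at least 1 FPKM did the same in each library.

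Changes from 10–15 h to 25–40 h are called the first step and those from 25–40 h to 55–70 h the second step. Differences between groups are given on the scale log2(FPKM + 1) with their standard error (SE), from limma fitted to all 12 libraries, and each adjusted p is a Benjamini–Hochberg value over the 10105 tested loci, with a threshold of 0.05. A gene is said to have risen, fallen or differed only where it passed that threshold.

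Embryo stage markers differed between the ages, and some of them also separated libraries of 1 age. The pair-rule gene *eve* was at 258 to 358 FPKM at 10–15 h. At 25–40 h it was at 260 and 236 FPKM in males, which overlapped that range, and at 96.0 and 82.9 FPKM in females. The mesoderm gene *Twi* was at 174 to 322 FPKM at 25–40 h. The muscle genes *TpnT* and *TpnI* were at 0.0565 to 0.486 FPKM before 55–70 h, and *TpnCIIb* was at 0.120 FPKM or less. Other muscle genes of the list were not that low at those ages. *TpnCIIa* was at 7.97 to 50.8 FPKM, and the myosin gene *Mhc1*, not tested, had group means of 4.17 to 12.2 FPKM. In some markers the male libraries of 25–40 h lay nearer to the libraries of 10–15 h than the female ones did, although not in *Twi*. *Cyp314a1*, an ecdysone hydroxylase, was at 338 and 144 FPKM in males against 5.44 and 8.97 FPKM in females. The segment polarity gene *En* was at 8.61 and 12.9 FPKM in males against 49.2 and 93.2 FPKM in females. Replicate 1 of the males of 55–70 h stood apart, with *TpnT* at 149 FPKM against 424 to 520 FPKM in the other 3 libraries and *TpnI* at 262 FPKM against 587 to 756 FPKM. Of 12 loci that mark embryo stages 11 were tested, of which 5 rose and 3 fell at the first step, and 2 were higher and 3 lower in females at 25–40 h. Over all tested loci 47.6% rose and 23.6% fell at the first step, and 7.96% were higher and 6.68% lower in females at 25–40 h. The 8 royal jelly protein loci, markers of adult glands, summed to 4.13 to 16.8 FPKM per library, and of the 3 tested 1 rose and 2 fell at the first step. Because whole embryos were sequenced, fewer cells that express a gene and less RNA per cell cannot be told apart.

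**Figure D1:**
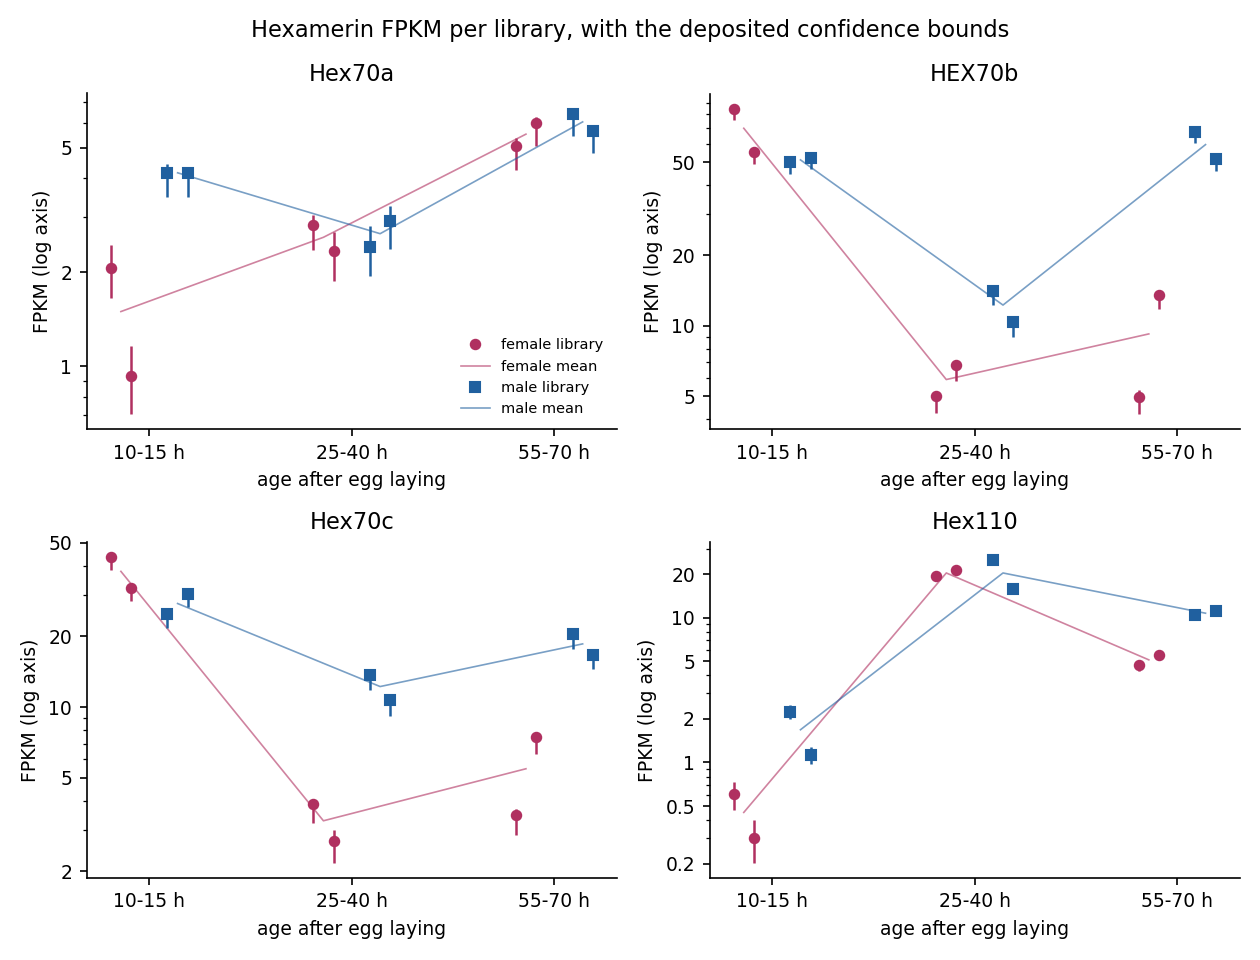
FPKM (log axis) of each hexamerin gene in the 12 libraries by age after egg laying, females as circles and males as squares, with the deposited lower and upper confidence bounds as vertical lines and lines through the group means of 2 libraries. *HEX70b* and *Hex70c* start high in both sexes and are low in females afterwards, while *HEX70b* is at 67.6 and 51.4 FPKM in males at 55–70 h. *Hex110* is highest at 25–40 h.

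*HEX70b* was the most abundant hexamerin in the earliest embryos of both sexes and had the largest sex difference in the latest ones. At 10–15 h it was at 84.6 and 55.1 FPKM in females and at 50.1 and 52.3 FPKM in males. By 25–40 h it was at 5.02 and 6.80 FPKM in females and at 14.1 and 10.4 FPKM in males. Finally, at 55–70 h, it was at 4.99 and 13.5 FPKM in females and at 67.6 and 51.4 FPKM in males. Thus both sexes were high at first and low at 25–40 h, and at 55–70 h the males were near their first level while both females stayed below every male library of that age.

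In order of the group means, *HEX70b* was at 69.9 ± 20.9 FPKM (SD, n = 2) in females of 10–15 h, 59.5 ± 11.4 in males of 55–70 h and 51.2 ± 1.52 in males of 10–15 h. These first 3 groups overlapped with their neighbours in the order. A gap separated them from males of 25–40 h at 12.3 ± 2.60, females of 55–70 h at 9.25 ± 6.03 and females of 25–40 h at 5.91 ± 1.26 FPKM, which again overlapped with their neighbours. In females of 10–15 h the mean of *HEX70b* exceeded that of 90.2% of the tested loci, and in females of 25–40 h that of 43.9%.

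*Hex70c*, the last gene of the cluster, had a similar course at a lower level. Females of 10–15 h held 43.5 and 32.2 FPKM, and males of 10–15 h held 24.9 and 30.3 FPKM. Females of 25–40 h held 3.87 and 2.69 FPKM, and males of 25–40 h held 13.7 and 10.7 FPKM. Females of 55–70 h held 3.48 and 7.45 FPKM, and males of 55–70 h held 20.4 and 16.7 FPKM. Both male libraries lay above both female libraries at 25–40 h and again at 55–70 h. Their bounds, which cover only the estimate within a library, did not overlap at either age.

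In order of the group means, *Hex70c* was at 37.8 ± 7.94 FPKM (SD, n = 2) in females of 10–15 h, 27.6 ± 3.77 in males of 10–15 h, 18.6 ± 2.62 in males of 55–70 h and 12.2 ± 2.10 in males of 25–40 h. The values of these 4 groups did not overlap with their neighbours, although the bounds of the first 2 did. Females of 55–70 h at 5.46 ± 2.80 and females of 25–40 h at 3.28 ± 0.831 FPKM came last and overlapped with each other.

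*Hex110*, the gene of the largest subunit, followed the opposite course to *HEX70b* and *Hex70c* at the first step. The first age, 10–15 h, gave 0.604 and 0.299 FPKM in females and 2.24 and 1.13 FPKM in males. The middle age, 25–40 h, gave 19.5 and 21.3 FPKM in females and 25.0 and 15.8 FPKM in males. The last age, 55–70 h, gave 4.69 and 5.55 FPKM in females and 10.4 and 11.1 FPKM in males. It was lowest in the earliest libraries and highest at 25–40 h, the only age at which the sexes overlapped.

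The group means of *Hex110* were 20.4 ± 1.22 FPKM (SD, n = 2) in females and 20.4 ± 6.51 in males of 25–40 h, followed by 10.8 ± 0.471 in males and 5.12 ± 0.607 in females of 55–70 h, then 1.68 ± 0.784 in males and 0.452 ± 0.215 in females of 10–15 h. Apart from the first pair, no neighbouring groups in this order overlapped in their values or their bounds. Its lowest and highest libraries differed 83.5-fold, against 17.0-fold for *HEX70b*, 16.1-fold for *Hex70c* and 6.89-fold for *Hex70a*.

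*Hex70a*, the first gene of the cluster, was low in all embryos. In females it was at 2.06 and 0.933 FPKM at 10–15 h, and in males at 4.17 and 4.15 FPKM. In females it was at 2.84 and 2.33 FPKM at 25–40 h, and in males at 2.40 and 2.91 FPKM. In females it was at 5.06 and 6.0 FPKM at 55–70 h, and in males at 6.43 and 5.68 FPKM. The sexes overlapped at both later ages, and all 4 libraries of 55–70 h lay above the other 8.

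The group means of *Hex70a* ran from 6.05 ± 0.533 FPKM (SD, n = 2) in males and 5.53 ± 0.659 in females of 55–70 h, which overlapped, through 4.16 ± 0.0108 in males of 10–15 h to 2.66 ± 0.357 in males and 2.59 ± 0.359 in females of 25–40 h, which also overlapped. Females of 10–15 h came last at 1.5 ± 0.796 FPKM, with bounds that overlapped those of the females of 25–40 h. With a mean of 3.75 FPKM over all libraries, *Hex70a* was the least abundant of the 4 genes.

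From 10–15 h to 25–40 h, averaged over the sexes, 3 of the 4 hexamerin loci were called. *HEX70b* and *Hex70c* fell and *Hex110* rose, where 23.6% of all tested loci fell, 47.6% rose and 71.2% were called in either direction. On the log2 scale *HEX70b* fell by 2.66 (SE 0.28, adjusted p = 8.05e-06), *Hex70c* fell by 2.15 (SE 0.23, adjusted p = 1.01e-05) and *Hex110* rose by 3.44 (SE 0.21, adjusted p = 1.38e-07). *Hex70a* differed by 0.028 (SE 0.19, adjusted p = 0.906), and its direction changed with the scaling of the libraries. It was -0.45 (adjusted p = 0.0243) after median-ratio scaling and -0.78 (adjusted p = 7.54e-04) after quantile normalization. In males, where it was -0.50 (adjusted p = 0.131), it passed the threshold at -0.93 (adjusted p = 0.00443) and -1.15 (adjusted p = 9.32e-04) under these scalings, and at -0.86 (adjusted p = 0.0233) with all libraries rescaled to the same sum. The median of all loci was 0.50 at this step in unscaled FPKM, opposite in sign to the falls of *HEX70b* and *Hex70c*. That median depended on how the libraries were scaled. It was 0.29 with one common sum, 0.078 when median ratios set the scale and -0.027 once quantiles were matched. It therefore does not show a general rise that is independent of scaling.

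The falls were 11.8-fold for *HEX70b* and 11.5-fold for *Hex70c* by the means of the females, and 4.17-fold and 2.26-fold by the means of the males. In the fit within each sex, *HEX70b* fell by 3.34 (SE 0.39, adjusted p = 2.96e-05) in females, where 19.5% of all tested loci fell, and fell by 1.99 (SE 0.39, adjusted p = 0.00151) in males, where 20.4% did. *Hex70c* fell by 3.18 (SE 0.33, adjusted p = 1.12e-05) in females and by 1.12 (SE 0.33, adjusted p = 0.0137) in males. The male fall of *Hex70c* was past the threshold in the fit of all libraries but not without replicate 2 of the males of 10–15 h (adjusted p = 0.0898) or of 25–40 h (adjusted p = 0.0903).

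*Hex110* rose in both sexes at this step. The means rose 45.2-fold in females and 12.1-fold in males, from levels at which 2 of 4 libraries were below 1 FPKM. On the scale of log2(FPKM + 1), which understates changes of low genes, it rose by 3.89 (SE 0.29, adjusted p = 1.20e-06) in females, where 45.6% of all tested loci rose, and by 2.99 (SE 0.29, adjusted p = 1.50e-05) in males, where 36.3% did. The troponin gene *TpnCIIa*, which overlaps *Hex110*, rose as well, from 14.7, 7.97, 19.3 and 32.6 FPKM in the females and males of 10–15 h to between 38.0 and 50.8 FPKM at 25–40 h (log2 difference 1.35, adjusted p = 2.16e-04). Its part in the values of *Hex110* was not tested.

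From 25–40 h to 55–70 h, averaged over the sexes, 3 of the 4 loci were called again. *Hex70a* and *HEX70b* rose and *Hex110* fell, where 36.4% of all tested loci rose, 19.0% fell and 55.4% were called in either direction. *Hex70a* rose by 0.91 on the log2 scale (SE 0.19, adjusted p = 0.00194), but by 0.25 (adjusted p = 0.157) after quantile normalization, which ends the call. *HEX70b* rose by 1.32 (SE 0.28, adjusted p = 0.00222) and *Hex110* fell by 1.32 (SE 0.21, adjusted p = 2.95e-04). *Hex70c* was 0.55 higher (SE 0.23, adjusted p = 0.0641), short of the threshold, with a rise past it (0.78, adjusted p = 0.0134) without replicate 1 of the females of 55–70 h. The median of all loci was 0.23 at this step.

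The rise of *HEX70b* passed the test in males and not in females. Its mean was 4.84-fold higher in males of 55–70 h than of 25–40 h (log2 difference 2.19, SE 0.39, adjusted p = 0.00106), where 32.7% of all tested loci rose. In females it was 1.57-fold higher (0.44, SE 0.39, adjusted p = 0.394), where 25.4% rose, and the female libraries of 25–40 h lay between those of 55–70 h. That female difference turned to -0.19 without replicate 2 of the females of 55–70 h, the library at 13.5 FPKM. Without replicate 1 of that group, the library at 4.99 FPKM, it grew to 1.08. The size of the female change, and whether it passes, thus depended on which of these libraries was kept. *Hex70c* was 1.67-fold higher in females (0.54, SE 0.33, adjusted p = 0.216) and 1.52-fold higher in males (0.57, SE 0.33, adjusted p = 0.181), neither past the threshold.

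*Hex110* fell 3.98-fold in females by the means (log2 difference -1.81, SE 0.29, adjusted p = 6.61e-04), where 15.5% of all tested loci fell. In males it fell 1.90-fold (-0.83, SE 0.29, adjusted p = 0.0376), where 13.5% fell. The male fall lost its call without replicate 1 of the males of 25–40 h (adjusted p = 0.266), without either male library of 55–70 h (adjusted p = 0.119 and 0.0864) without replicate 2 of the females of 10–15 h (adjusted p = 0.0501), with a pseudocount of 0.1 (adjusted p = 0.0963) and with only the libraries compared (adjusted p = 0.0924). *Hex70a* rose in females (0.86, SE 0.26, adjusted p = 0.0238) and in males (0.95, SE 0.26, adjusted p = 0.0133). Its female rise was lost without any one of 3 libraries, replicate 2 of the females of 25–40 h (adjusted p = 0.0923) or either female library of 55–70 h (adjusted p = 0.0589 and 0.108). Its male rise was lost without replicate 1 of the males of 25–40 h (adjusted p = 0.0794) or of 55–70 h (adjusted p = 0.0566). Both rises were also lost after quantile normalization (0.31, adjusted p = 0.230, in females and 0.19, adjusted p = 0.469, in males), with all libraries rescaled to the same sum (adjusted p = 0.0526 and 0.0589) and with only the libraries compared (adjusted p = 0.0910 and 0.0524).

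Exact permutation tests of single genes between ages, two-sided and with the libraries exchanged within each sex, had 36 arrangements and cannot give a p below 0.0556. That smallest value was reached at the first step by *HEX70b*, *Hex70c* and *Hex110*, and at the second by *Hex70a* and *Hex110*. At the second step *HEX70b* gave an exact p of 0.167 and *Hex70c* of 0.111.

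**Figure D2:**
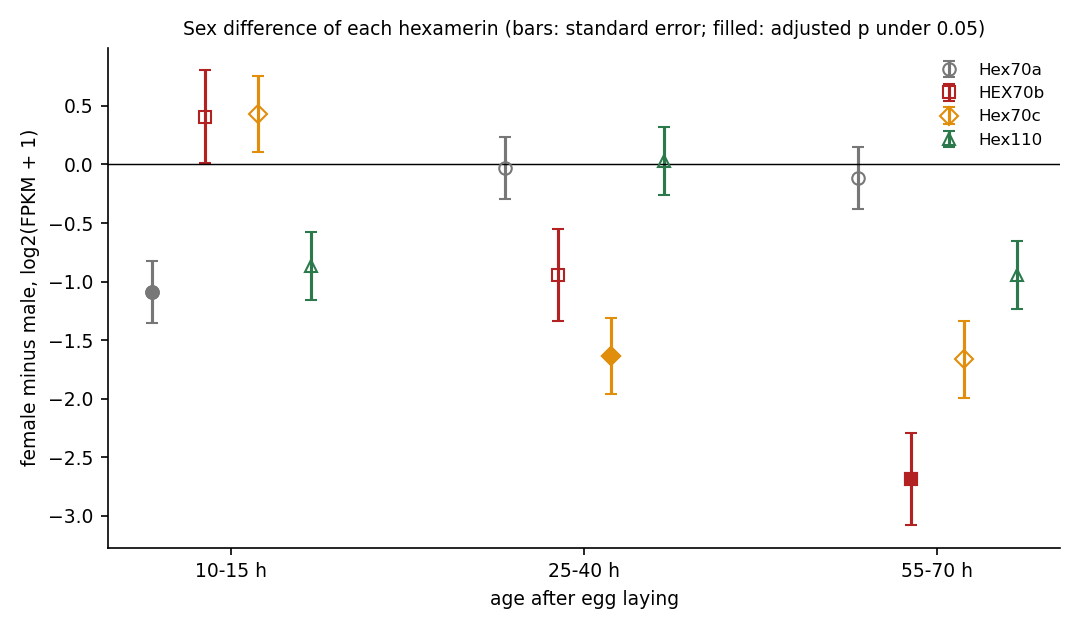
Difference between females and males in log2(FPKM + 1) for each hexamerin at each age after egg laying, from the limma fit to 12 libraries, with bars of 1 standard error and filled symbols for an adjusted p under 0.05. At 55–70 h *HEX70b* is at -2.69 and *Hex70c* at -1.66, while *Hex70a* is at -0.11.

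Females and males differed at 1 of the 4 hexamerin loci at each age, and a different gene passed at each. The change of gene rested in part on the threshold. *Hex70c* was at -1.63 at 25–40 h, where it passed, and at -1.66 at 55–70 h, where it did not. At 10–15 h *Hex70a* was lower in females by 1.09 on the log2 scale (SE 0.26, adjusted p = 0.0347), a ratio of the means of 2.78, where 7.23% of all tested loci were lower in females, 1.84% higher and 9.07% called in either direction. *Hex110* was 0.86 lower in females (SE 0.29, adjusted p = 0.0881), and passed the threshold with a pseudocount of 0.1 (adjusted p = 0.0242) and with all libraries rescaled to the same sum (adjusted p = 0.0331). *HEX70b* and *Hex70c* were 0.41 (SE 0.39, adjusted p = 0.607) and 0.43 (SE 0.33, adjusted p = 0.477) higher in females, neither past the threshold.

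The difference of *Hex70a* at 10–15 h rested on values of 0.933 to 4.17 FPKM. It was lost without replicate 2 of the females of 10–15 h (-0.75, adjusted p = 0.267), without either male library of that age (adjusted p = 0.189 and 0.177), without either female library of 55–70 h (adjusted p = 0.0510 and 0.0511) after quantile normalization (-0.74, adjusted p = 0.0557), with no filter (adjusted p = 0.0659) and with only the libraries compared (adjusted p = 0.113). The median sex difference of all loci was -0.11 at this age, and the share of calls that were higher in females went from 20.3% to 41.3% with median-ratio scaling, which left *Hex70a* at -0.96 (adjusted p = 0.0184).

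At 25–40 h *Hex70c* was lower in females by 1.63 (SE 0.33, adjusted p = 0.00827), a ratio of the means of 3.73, where 6.68% of all tested loci were lower in females, 7.96% higher and 14.6% called in either direction. *HEX70b* was 0.94 lower in females (SE 0.39, adjusted p = 0.146), a ratio of the means of 2.08. *Hex70a* and *Hex110* had the smallest differences, -0.028 (SE 0.26, adjusted p = 0.970) and 0.033 (SE 0.29, adjusted p = 0.968). The call of *Hex70c* was lost without replicate 2 of the females (adjusted p = 0.0671) or replicate 1 of the males (adjusted p = 0.0790) of that age, and with only the 4 libraries of that age fitted (adjusted p = 0.0939). As given above, the male libraries of 25–40 h also held other genes at levels nearer to those of 10–15 h. The antibacterial peptide gene *Apid1*, for example, was at 16.2 to 23.1 FPKM at 10–15 h, at 4.48 and 1.93 FPKM in males of 25–40 h and at 0.0375 and 0.0927 FPKM in females of 25–40 h. Sex and developmental state of the embryos cannot be told apart at this age.

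At 55–70 h *HEX70b* was lower in females by 2.69 (SE 0.39, adjusted p = 0.0208), a ratio of the means of 6.43, where 0.317% of all tested loci were lower in females, 0.327% higher and 0.643% called in either direction. *Hex70c* was 1.66 lower in females (SE 0.33, adjusted p = 0.0585), a ratio of 3.40, just short of the threshold. It passed with a pseudocount of 5 (adjusted p = 0.0392), with no filter (adjusted p = 0.0497), after quantile normalization (adjusted p = 0.0347) and on the midpoints of the bounds (adjusted p = 0.0361). *Hex110* was 0.94 lower in females (SE 0.29, adjusted p = 0.15) and *Hex70a* 0.11 lower (SE 0.26, adjusted p = 0.862). The median sex difference of all loci was -0.19 at this age. The share of calls that were higher in females was 50.8%, and 70% with median-ratio scaling, where *HEX70b* stood at -2.38 (adjusted p = 0.0340).

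The difference of *HEX70b* at 55–70 h kept its direction without any one of the 12 libraries, but not always its call. It was -2.05 (adjusted p = 0.109) without replicate 1 of the females of 55–70 h and -2.49 (adjusted p = 0.0760) without replicate 1 of the males of 55–70 h, the library with low troponins. Without either male library of 10–15 h the size was the same and the adjusted p was 0.0576 and 0.0578. When the 4 libraries of 55–70 h were fitted alone, it was 0.442. Replicate 2 of the males had *TpnT* at 485 FPKM and *TpnI* at 756 FPKM, within or above the female range. It held *HEX70b* at 51.4 FPKM against 4.99 and 13.5 FPKM in females. Whether the developmental state of the embryos had a part in the difference of *HEX70b* at this age was not tested.

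Over the 12 comparisons of the sexes, 4 genes at 3 ages, the FPKM of the females and males did not overlap in 9. By age, the values did not overlap for 4 of 4 hexamerins at 10–15 h, 2 of 4 at 25–40 h and 3 of 4 at 55–70 h, where 62.0%, 51.3% and 48.7% of all tested loci did not overlap. With 2 libraries a side such separation was common, and these shares are no more than a description.

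Whether the sex difference changed with age was tested by the interaction of sex and age, which called 10.0% of all tested loci. It called 2 of the 4 hexamerins, *HEX70b* (adjusted p = 0.0192) and *Hex70c* (adjusted p = 0.0253). For *HEX70b* the difference went from 0.41 through -0.94 to -2.69 over the 3 ages, and for *Hex70c* from 0.43 through -1.63 to -1.66. *Hex70a* (adjusted p = 0.117) and *Hex110* (adjusted p = 0.183) did not pass. Both calls were lost without replicate 1 of the females of 10–15 h (adjusted p = 0.0533 for *HEX70b* and 0.0813 for *Hex70c*), without either male library of 10–15 h (0.0662 and 0.0611 for *HEX70b*, 0.110 and 0.0750 for *Hex70c*) and without replicate 1 of the males of 25–40 h (0.0503 and 0.0707). The call of *HEX70b* was also lost without replicate 1 of the males of 55–70 h (0.0506), and that of *Hex70c* without replicate 2 of the females of 10–15 h (0.0585) and with no filter (0.0501).

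Averaged over the 3 ages, 3 of the 4 loci were called lower in females, where 8.18% of all tested loci were lower in females, 3.75% higher and 11.9% called in either direction. The averaged difference was -1.07 (SE 0.23, adjusted p = 0.0206) for *HEX70b*, -0.95 (SE 0.19, adjusted p = 0.0171) for *Hex70c* and -0.59 (SE 0.17, adjusted p = 0.0474) for *Hex110*. *Hex70a* stood at -0.41 (SE 0.15, adjusted p = 0.0983). The first 2 averages join ages of opposite sign. The call of *Hex110* was lost under 6 of 11 other settings (adjusted p up to 0.141) and in 10 of 12 fits without 1 library, and that of *HEX70b* was lost with no filter (adjusted p = 0.0523). With all libraries rescaled to the same sum *Hex70a* passed as well (-0.58, adjusted p = 0.0301). No call remained without replicate 2 of the females or either replicate of the males of 10–15 h, and 1 remained without replicate 1 of the males of 25–40 h or of 55–70 h. In the exact permutation test, two-sided with the sexes exchanged within ages (smallest possible p 0.00926), *Hex110* gave p = 0.0370 (0.0741 with a pseudocount of 5), *Hex70c* 0.0556, and *HEX70b* and *Hex70a* 0.0833 each.

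The summed level of the 4 genes, per length since FPKM are per kilobase, was 131 and 88.6 FPKM in females and 81.5 and 87.8 FPKM in males at 10–15 h. It was 31.3 and 33.1 FPKM in females and 55.2 and 39.9 FPKM in males at 25–40 h, and 18.2 and 32.5 FPKM in females and 105 and 84.9 FPKM in males at 55–70 h. The female libraries of the later 2 ages overlapped, and the males of 55–70 h lay above all other libraries of 25–40 h and 55–70 h. The sum took 0.00251% to 0.0278% of all FPKM of a library, so all hexamerins together were a minor fraction of embryonic RNA at every age.

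The make-up of that sum changed with age. *HEX70b* gave 59.5% to 64.7% of it in all 4 libraries of 10–15 h and 64.4% and 60.6% in males of 55–70 h. At 25–40 h *Hex110* led, with 62.5% and 64.3% in females and 45.2% and 39.6% in males, after 0.338% to 2.75% at 10–15 h. In females of 55–70 h *HEX70b* gave 27.4% and 41.6%, and it led in replicate 2 only. *Hex70a*, at most 9.09% in both earlier ages, reached 27.8% and 18.4% there.

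**Figure D3:**
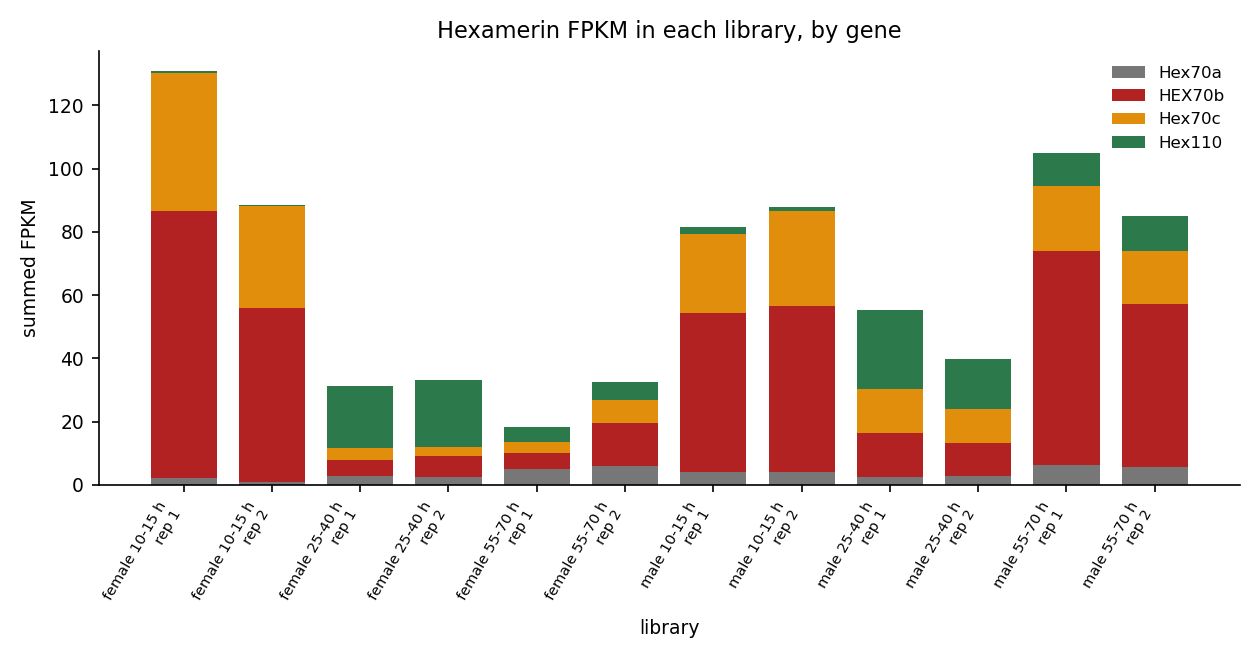
Summed FPKM of the 4 hexamerin genes in each of the 12 libraries, with the part of each gene as a stacked segment. The sum runs from 18.2 FPKM in females of 55–70 h, replicate 1, to 131 FPKM in females of 10–15 h, replicate 1, and *Hex110* is the main segment in females of 25–40 h.

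The neighbours *HEX70b* and *Hex70c* did not keep a fixed ratio. *HEX70b* was at 1.71 to 2.01 times the FPKM of *Hex70c* in the 4 libraries of 10–15 h. In males the ratio was 1.03 and 0.971 at 25–40 h and 3.30 and 3.07 at 55–70 h, and these values did not overlap with each other or with 10–15 h. In females it was 1.30 and 2.52 at 25–40 h and 1.43 and 1.81 at 55–70 h, with a spread as wide as the distance between ages. These ratios are a description, with 2 libraries in each group.

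The remaining single-named loci within 50 kb of the Hex70 cluster, 12 in number and all tested, did not share 1 course. From 10–15 h to 25–40 h, 6 of them rose and 3 fell, where 47.6% of all tested loci rose and 23.6% fell. From 25–40 h to 55–70 h, 4 rose and 1 fell, where 36.4% rose and 19.0% fell. Among those that fell at the first step were *LOC551888* (-0.87, adjusted p = 0.00294) and *shu* (-2.05, adjusted p = 1.18e-06), a gene known in *Drosophila* for a co-chaperone of the piRNA pathway. *LOC409353*, the locus nearest to *Hex70a*, rose by 3.91 (adjusted p = 8.00e-07). Between the sexes at 55–70 h 1 of the 12 was called, where 0.643% of all tested loci were. It was *LOC100578605*, the locus that overlaps *HEX70b*.

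*LOC100578605* was at 5.76 and 5.10 FPKM in females and 2.64 and 2.89 FPKM in males at 10–15 h. In libraries of 25–40 h it was at 0.351 and 0.239 FPKM in females and 0.236 and 0.358 FPKM in males. In libraries of 55–70 h it was at 0.0910 and 0.355 FPKM in females and 2.89 and 3.03 FPKM in males. It thus shared with *HEX70b* the high early level, the fall (-1.93, adjusted p = 1.65e-06) and the lower level in females at 55–70 h (-1.70, adjusted p = 0.0139), while at 25–40 h, where neither was called, the female minus male difference was -0.0016 (adjusted p = 1.0) for *LOC100578605* and -0.94 (adjusted p = 0.146) for *HEX70b*. The part of shared reads in these values was not tested.

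**Figure D4:**
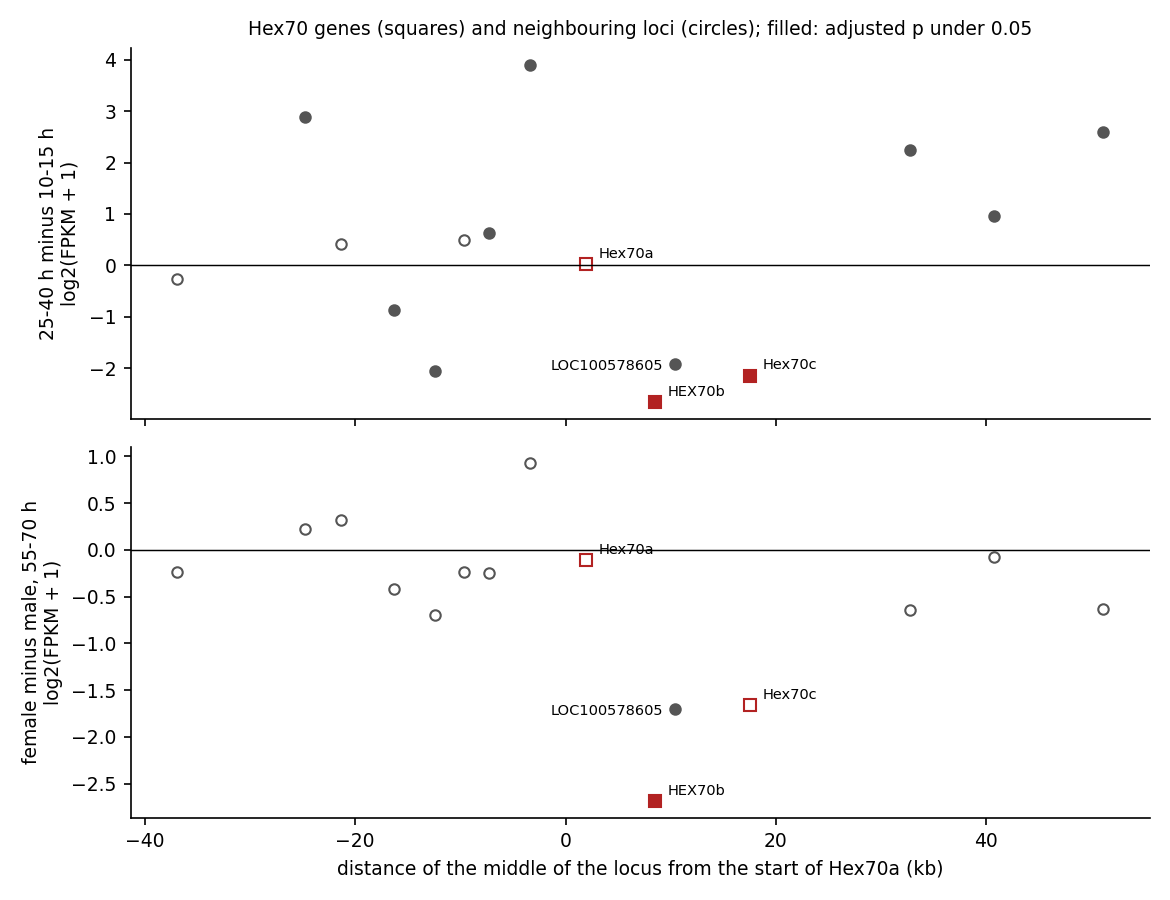
Log2 differences of the Hex70 genes (squares) and of 12 neighbouring loci (circles) against the distance of the middle of each locus from the start of *Hex70a* in kb, for 25–40 h minus 10–15 h averaged over the sexes (upper panel) and for female minus male at 55–70 h (lower panel), with filled symbols for an adjusted p under 0.05. In the lower panel the filled symbols are *HEX70b* at -2.69 and the overlapping *LOC100578605* at -1.70.

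Around *Hex110*, 8 single-named loci lay within 50 kb and all were tested. From 10–15 h to 25–40 h 3 rose and 3 fell, where 47.6% of all tested loci rose and 23.6% fell. From 25–40 h to 55–70 h 3 rose and 4 fell, where 36.4% rose and 19.0% fell. Besides *TpnCIIa* (-0.87 at the second step, adjusted p = 0.00614), the gene *Miro*, which codes for a mitochondrial GTPase, rose at the first step (2.23, adjusted p = 8.49e-06) and the splicing factor gene *RnpS1* fell at both (-0.45, adjusted p = 0.00740, and -0.93, adjusted p = 1.04e-04).

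Pearson correlations of log2(FPKM + 1) over the 12 libraries, given as a description because all genes share the same libraries and the same 3 ages, placed *HEX70b* and *Hex70c* close together at 0.94. *Hex110* stood at -0.64 to *HEX70b* and -0.68 to *Hex70c*, and *Hex70a* at -0.0018 to *HEX70b*, -0.18 to *Hex70c* and 0.23 to *Hex110*. Among 1886 tested loci with a gene name of their own, *Hex70c* ranked first in likeness to *HEX70b*, followed by *Pcd* (0.92) and *Catsup* (0.91). For *Hex70c* the order was *Synd* (0.94), *HEX70b* and *path* (0.92). For *Hex110* the 3 most alike were *NC2beta* (0.99), *Lop1* and *dbo* (0.98 each), and for *Hex70a* they were *Idh*, *PNUTS* and *sws* (0.97, 0.95 and 0.95).

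Among these, *Lop1*, named for a long-wavelength opsin, had levels near to those of *Hex110*, with group means of 0.549 and 0.998 FPKM in females and males of 10–15 h, 13.1 and 11.9 FPKM at 25–40 h and 2.94 and 6.60 FPKM at 55–70 h. *Synd* was at 63.5 and 62.6 FPKM in females and males of 10–15 h, 17.6 and 32.9 FPKM at 25–40 h and 22.9 and 39.9 FPKM at 55–70 h, so the order of the sexes at both later ages was that of *Hex70c*.

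Other proteins that insects carry in the egg or the hemolymph did not follow the hexamerins as a group. Of 6 such loci 5 were tested. At the first step 1 rose and 2 fell (median 0.11 against 0.50 for all loci), and at the second 3 rose (median 0.67 against 0.23). Beside this list and those that follow, 47.6% of all tested loci rose and 23.6% fell at the first step. At the second, 36.4% rose and 19.0% fell. The ferritin genes *Fer1HCH* and *Fer2LCH*, which code for the subunits of an iron store, were the abundant ones. *Fer1HCH* had means of 118 FPKM in females and 230 FPKM in males of 10–15 h, then 141 and 84.0 FPKM, and in the last age 223 and 386 FPKM. *Fer2LCH* had means of 123 and 309, 290 and 150, and 317 and 436 FPKM at the same ages. Within this list 2 loci were lower in females at 10–15 h and 2 higher at 25–40 h, where 7.23% and 7.96% of all tested loci were. *Vg*, the gene of the yolk protein vitellogenin, which is made in the adult fat body, stayed between 0.04 and 0.20 FPKM and was not tested.

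The prophenoloxidase gene *PPO*, a relative of the hexamerins whose enzyme starts melanin formation, had means of 0.493 and 1.64 FPKM in females and males of 10–15 h, 3.98 and 5.05 FPKM at 25–40 h and 4.31 and 3.04 FPKM at 55–70 h. It rose at the first step (1.47, adjusted p = 1.72e-05), as *Hex110* did, and differed by -0.24 (adjusted p = 0.249) at the second.

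Juvenile hormone and ecdysone are the hormones that govern hexamerin genes in insect larvae. Of 15 loci of their synthesis and response 13 were tested. At the first step 5 rose and 3 fell (median 0.36), and at the second 9 rose and 1 fell (median 0.97). *jhamt*, the enzyme of the last steps of juvenile hormone synthesis, was at 0.0399 and 0.0670 FPKM in females and males of 10–15 h, at 0.417 and 0.399 FPKM at 25–40 h and at 253 and 261 FPKM at 55–70 h (7.48 at the second step, adjusted p = 5.94e-09). *Cyp314a1* fell at both steps (-4.47, adjusted p = 1.28e-07, and -1.22, adjusted p = 0.00255). The nuclear receptor gene *Hr4* fell by 1.87 (adjusted p = 9.83e-06) and then rose by 4.10 (adjusted p = 7.34e-08). Between the sexes 1 locus of the list was higher in females at 10–15 h and 1 lower at 25–40 h, where 1.84% and 6.68% of all tested loci were. At 55–70 h limma called 0, with 1 at an unadjusted p under 0.05, where 0.643% of all tested loci were called.

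Genes of insulin and TOR signalling, the pathway that links nutrition to growth, numbered 6, all tested. At the first step 2 rose and 3 fell and at the second 2 rose and 2 fell. *foxo*, the transcription factor restrained by insulin, fell by 1.24 (adjusted p = 4.37e-04) and then rose by 2.28 (adjusted p = 9.08e-06), and the insulin-like peptide gene *ILP-2* fell by 0.60 (adjusted p = 0.00615) and then rose by 1.37 (adjusted p = 3.99e-05). Between the sexes limma called 0 of the 6 at each single age, with 1 at 10–15 h and 2 at 55–70 h at an unadjusted p under 0.05. Of all tested loci 9.07%, 14.6% and 0.643% were called at the 3 ages.

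Of 9 loci that mark fat body or blood cells 7 were tested. At the first step 2 rose and 4 fell, and at the second 2 rose and 2 fell, so the list did not move one way. In females 2 of the 7 were higher at 10–15 h and 3 lower at 25–40 h, where 1.84% and 6.68% of all tested loci were. *Pxn*, the peroxidasin of blood cells in *Drosophila*, had a locus that rose at both steps (2.73, adjusted p = 2.36e-07, and 2.93, adjusted p = 3.08e-07). Another locus of that name rose at the first step only (1.10, adjusted p = 6.58e-04, then -0.072, adjusted p = 0.789). The nuclear receptor gene *SVP*, a fat body and patterning gene in *Drosophila*, was at 88.5 and 94.1 FPKM in females and 34.5 and 41.0 FPKM in males of 10–15 h, at 1.89 and 3.47 FPKM in females and 25.1 and 13.3 FPKM in males of 25–40 h, and at 37.8 to 62.2 FPKM in the 4 libraries of 55–70 h. The defining blood cell gene *Hml* was at 2.05 FPKM or less in every group mean. These lists were chosen with earlier results of these data known, and their counts describe the hexamerins' surroundings only.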

How the data were processed

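Whole honeybee embryos of both sexes were sequenced at 3 ages in 12 libraries, which the submitters' labels place in 6 groups of 2. Per library, the authors deposited 1 table of FPKM per locus, each with a confidence interval and a flag for the quality of the estimate. Cufflinks 2.2.1, Bowtie2 2.2.6 and TopHat2 appear in the submitters' processing notes. The sources used here name no parameters, strand setting or genome build, and the chromosome names were taken by gene symbol from the RefSeq annotation of the Amel_HAv3.1 assembly. FPKM are relative values, so more RNA from some genes means lower FPKM for the rest. Depth in reads is unknown, and the bounds cover the estimate within a library, not the spread between pools. The collection protocol gives a window of egg laying that is wider than the label of the first age, so the ages of single embryos within a pool may differ more than the labels state.

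Values were analysed as log2(FPKM + 1) without further scaling. Of 17621 loci, 10105 averaged 1 FPKM or more and had the status OK throughout, and these were fitted as 6 group means in R 4.3.3 by limma 3.58.1, using a variance trend, 6 residual and 4.42 prior degrees of freedom, and Benjamini–Hochberg adjustment. The fit was also run on simulated data with independent noise and known changes in a small part of the loci. Far more loci changed between ages in the real data, so that run does not measure the error of the calls given here. Females were compared with males by age and over all ages, and successive ages over both sexes and within each, beside the interaction. Single genes were also compared by exact permutation. Python 3.11.15 with numpy 2.4.6, pandas 2.3.3 and matplotlib 3.10.9 made the tables and figures.

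The members and gene lists were chosen with earlier results of these data known. Named are all 4 hexamerins, up to 4 called members of each list by their largest age step, single-named loci within 50 kb, and the 3 named loci most correlated with each hexamerin. *TpnCIIa*, *Cyp314a1*, *En*, *Apid1*, *SVP*, *Vg*, *Hml* and the further examples named beside them from these lists and neighbourhoods were picked after their values were seen. Lists were matched by symbol without regard to case, so that *NOS*, *Phm* and *Tor* may stand for other genes than intended. Alternatives covered the pseudocount, the filter, the scaling, the status, the libraries fitted, the replicate block, the variance trend, the midpoint of the bounds, and each library left out. No sequence was used.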

Additional observations from a re-analysis of the deposited data

Results flagged for a closer look

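For 2 hexamerins the difference between females and males changed with age by the interaction of sex and age in the limma fit. For *HEX70b* (adjusted p = 0.0192) the log2 difference of females from males was 0.41 at 10–15 h, -0.94 at 25–40 h and -2.69 at 55–70 h. For *Hex70c* (adjusted p = 0.0253) it was 0.43, -1.63 and -1.66. The interaction called 10.0% of all tested loci. Groups of 2 libraries are too small to look for single outlying samples.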

How the results depend on the processing

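Most member results kept their direction and their side of the threshold, 466 of 509 under other settings and 465 of 528 with a library left out, and the falls of *HEX70b* and *Hex70c* and the rise of *Hex110* at the first step, averaged over the sexes, kept both throughout. The number of hexamerins called depended on the setting as follows, and the cause was not tested except where fewer libraries or a filter set it. At 10–15 h the sex difference called 1, against 2 with a pseudocount of 0.1 or one common sum, and 0 with no filter, the filter of 5 FPKM (which removes *Hex70a*), quantile normalization or only the libraries compared, where 1 to 2 had an unadjusted limma p under 0.05. At 25–40 h it called 1 against 0 with only the libraries compared, where 1 had an unadjusted p under 0.05. At 55–70 h it called 1, against 2 with a pseudocount of 5, no filter, quantile normalization or midpoints, and 0 with only the libraries compared, where 3 had an unadjusted p under 0.05. Averaged over ages it called 3, against 4 with one common sum, 2 with a pseudocount of 5, median-ratio scaling, quantile normalization, loci of any status or the replicate block, and 1 with no filter, where the interaction called 1 against 2. The first step called 3 on average and in males, against 4 with median-ratio scaling or quantile normalization and, in males, one common sum. On average the second step called 3, against 2 with the filter of 5 FPKM or quantile normalization. The second step called 2 in females, against 1 with the filter of 5 FPKM, quantile normalization, one common sum or only the libraries compared, and 3 in males, against 2 with a pseudocount of 0.1, the filter of 5 FPKM, quantile normalization or one common sum, and 1 with only the libraries compared. With single libraries left out the ranges were 0 to 1 at 10–15 h and at 25–40 h, 0 to 2 at 55–70 h, 0 to 3 for the average, 0 to 2 for the interaction, 1 to 2 for the female and 1 to 3 for the male second step.

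Signs changed only in differences that were not called in the fit as reported. *Hex70a* at the first step turned to -0.016 (pseudocount 5, also in the permutation test), -0.45 (median-ratio), -0.78 (quantile) and -0.28 (common sum), and ranged from -0.14 to 0.19 with a library left out, and in females alone it turned to -0.41 (quantile). Its sex difference turned to 0.0032 (median-ratio) at 25–40 h, where it ranged from -0.13 to 0.074 with a library left out, and to 0.12 (median-ratio and quantile) at 55–70 h. *Hex110* at 25–40 h turned to -0.17 (common sum) and ranged from -0.28 to 0.35 with a library left out. At the female second step *HEX70b* turned to -0.063 (quantile) and ranged from -0.19 to 1.08 with a library left out, and *Hex70c* turned to -0.013 (quantile).

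The replicate numbers were not used to pair the samples. Of 15 correlations between groups 3 were over 0.1 (range -0.28 to 0.17), and weak correlations cannot show that the samples were unpaired. With the replicate block, *Hex110* lost its averaged sex difference (adjusted p = 0.0568), no other hexamerin call changed, and the calls over all loci at 55–70 h went from 65 to 39. Those counts over all loci also moved by over 1.5 times elsewhere. At 10–15 h the 917 calls became 290 (no filter), 1819 (median-ratio), 1640 (common sum) and 0 (only the libraries compared), and 1 to 1442 with a library left out. At 25–40 h the 1479 became 0 and 521 to 2010. At 55–70 h the 65 became 0 to 353 and 11 to 392, and averaged over ages the 1206 became 680 (no filter), 2496 (common sum) and 123 to 2669. The 1012 of the interaction became 1887 (median-ratio) and 278 to 1214. The second step called 5594 loci, against 8477 (no filter) and 3683 (5 FPKM), in females 4129 against 2746 (5 FPKM) and 2644 (only the libraries compared), and in males 4669 against 3016 (5 FPKM). The share of calls that were higher moved from 66.9% to 51% (median-ratio) and 48.8% (quantile) at the first step, and from 65.7% to 50.4% and 40% at the second. The share of library FPKM taken by the hexamerins moved by more than the spread between replicates in 2 of 12 libraries with midpoints. Since depth is unknown, no limit from counting error can be given.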
